A study of Rattus norvegicus with 241 samples.

Results

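The luminal epithelium of adult virgin ACI rats was profiled by bulk RNA-seq after oral treatment with a TGFβ receptor inhibitor (TGFBRi) or vehicle. These libraries were chosen by their labels alone, as luminal cells of adult virgin ACI females, and they number 8 of the 241 samples in the series. The TGFBRi group held 4 rats given 75 mg/kg LY2157299 (galunisertib), a small molecule that blocks the kinase of the type I TGFβ receptor TGFBR1, by gavage 2 times a day for 10 days. The vehicle group held 4 rats gavaged with the carboxymethylcellulose-based carrier on the same schedule. All rats were 18 to 24 weeks old, were virgin, and were killed on day 0 after the last dose. ACI is an inbred rat strain used as a model of estrogen-driven mammary cancer, and the labels mark tumor status and estradiol pellet as not applicable for these rats. Luminal cells were sorted as CD24+CD29low cells after CD31+ endothelial and CD45+ blood cells had been gated away, and basal cells of the same rats were sorted as CD24+CD29high. Each rat gave 1 luminal library, so the replicate is the animal.

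TGFβ ligands are held in a latent form in the extracellular matrix, and once freed they join a type II receptor (TGFBR2) to a type I receptor (TGFBR1). The type I kinase then phosphorylates SMAD2 and SMAD3, which pair with SMAD4, enter the nucleus and switch target genes on or off, including inhibitors such as SMAD7 that feed back on the receptor. In the mammary gland the pathway is known for restraining epithelial growth and for shaping the matrix around the ducts. The luminal layer lines the duct and holds hormone-sensing cells, which carry estrogen and progesterone receptors, and progenitor cells, which give rise to the milk-producing alveolar lineage.

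Between 19715315 and 28815782 reads per library fell on genes, and 12140 to 13161 genes had at least 1 read. Values below are normalized counts, meaning read counts divided by the size factor the authors deposited them with. Luminal identity was clear in all 8 libraries: the summed level of 10 luminal keratin and surface marker genes ranged from 870570 to 1150210 in vehicle and from 488932 to 1437430 in TGFBRi libraries. The 13 basal markers summed to 6437 to 10584 in vehicle libraries 2 to 4 and to 5089 to 8714 in the TGFBRi libraries. Vehicle library 1 stood apart, with 74692 for the same basal markers. It was also the highest of all 8 for fibroblast markers, at 45303 against 2655 to 17265 in the others. Its endothelial markers summed to 23426 against 2204 to 5495, its leukocyte markers to 7139 against 164 to 1072, its adipocyte markers to 16716 against 688 to 3324, and its MHC class II genes to 37294 against 1337 to 3657. None of the defining markers measured in these lists was at 0 in all 8 libraries. Markers without a deposited value were left out: 2 luminal, 1 fibroblast, 1 leukocyte, 1 neutrophil, 3 mast cell and 4 red blood cell genes. The 4 mast cell and 2 red blood cell markers measured summed to under 20 normalized counts in every library. The neutrophil markers NGP, ELANE and CSF3R each had a normalized count under 10 in every library. TGFBRi library 4 stood apart in another way: its 11 milk protein genes summed to 324283, against 1759610 to 2287480 in vehicle and 2463510 to 4473900 in the other TGFBRi libraries. Values without vehicle library 1 or TGFBRi library 4 are therefore given beside many of the results that they move, and the part of either library's other cells in those results was not tested.

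**Figure D1:**
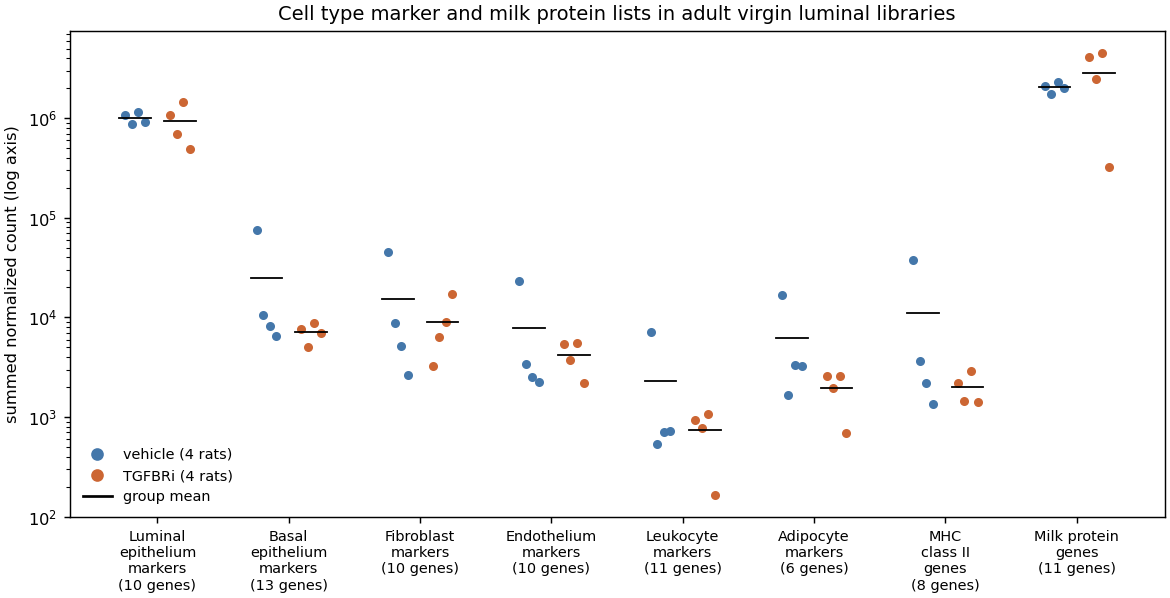
Summed normalized counts (log axis) of marker and milk protein lists in each of the 4 vehicle and 4 TGFBRi libraries, with a line at the group mean. Vehicle library 1 lies above all others for basal, fibroblast, endothelial, leukocyte, adipocyte and MHC class II genes, and TGFBRi library 4 lies at 324283 for milk proteins, below all others.

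The comparison of TGFBRi with vehicle asked which luminal genes respond to receptor inhibition in rats that have not been through pregnancy. With limma on log2(value + 1), in a model of 16 adult luminal libraries that held the virgin and parous groups, 0 of 14243 genes (0%) passed an adjusted p of 0.05, and the lowest adjusted p was 0.136, for ENDOU. At an unadjusted p under 0.05 there were 976 genes, of which 543 (3.81%) were higher and 433 (3.04%) lower in TGFBRi. That fit pools the spread of virgin and parous rats. With the virgin libraries alone limma had 669 of 13501 genes at an unadjusted p under 0.05 and a lowest adjusted p of 0.474. edgeR also called 0 genes, with 1112 at an unadjusted p under 0.05 and a lowest adjusted p of 0.106. DESeq2 on the recovered reads called 15 of the 12736 genes to which it gave an adjusted p (0.118%), 10 of them higher and 5 lower. Fitted to the virgin libraries alone, DESeq2 called 17 genes, and 7 of them were among those 15: ENDOU, ARHGAP12, CNTN1, VOM2R47, COL9A2, APOE and PSMB10. The median log2 difference over all genes was 0.01. All TGFBRi values lay above all vehicle values in 253 genes (1.78%) and below them in 192 (1.35%).

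Of the genes with the smallest p, 10 that were higher in TGFBRi are described first. ENDOU, which encodes a secreted endoribonuclease that cuts at uridines, was at 376, 529, 587 and 544 in the vehicle rats and at 1513, 1348, 1755 and 995 in the TGFBRi rats. The groups did not overlap, and the log2 difference was 1.45 ± 0.24 (SE, n = 4 and 4; limma adjusted p = 0.136, DESeq2 adjusted p = 3.76e-05). ARHGAP12, a GTPase-activating protein, was at 410, 320, 372 and 342 in vehicle and 609, 763, 688 and 711 in TGFBRi. It too was higher in each treated rat, by 0.94 ± 0.18 on the log2 scale (DESeq2 adjusted p = 1.49e-06, limma adjusted p = 0.385). ACSS2, which makes cytosolic acetyl-CoA from acetate, was at 277, 286, 160 and 126 in vehicle and 467, 676, 637 and 342 in TGFBRi, a log2 difference of 1.35 ± 0.29 (DESeq2 adjusted p = 0.0203, limma adjusted p = 0.547). These 3 genes rose by the DESeq2 test and did not pass by limma.

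A further 7 genes completed the set of 10 with the smallest p among the more abundant genes whose groups did not overlap, and none of them passed limma or DESeq2 in the model of 16 libraries. ELOVL5, an elongase of polyunsaturated fatty acids, was at 1691, 2423, 1620 and 1827 in vehicle and 3562, 3308, 3403 and 3791 in TGFBRi, a log2 difference of 0.91 ± 0.21. POR, the reductase that passes electrons to cytochrome P450 enzymes, was at 2765, 3561, 3923 and 2725 against 5454, 5161, 7237 and 4904. OXCT1, which activates ketone bodies for use as fuel, was at 283, 553, 193 and 342 against 759, 564, 918 and 971. In OXCT1 the groups nearly touched, at 553 and 564, while in POR and ELOVL5 a gap of over 800 counts lay between them. MERTK, a receptor kinase for the engulfment of dying cells, was at 963, 1530, 744 and 604 against 1630, 2868, 2200 and 1927, a log2 difference of 1.22 ± 0.28. PIK3CA, the catalytic subunit of phosphoinositide 3-kinase alpha, differed by 0.99 ± 0.25, and SYNJ2, a phosphoinositide phosphatase, by 1.46 ± 0.33. KLF15, a transcription factor of fasting metabolism, was at 0, 48.6, 1.31 and 1.76 in vehicle and 132, 95.8, 64.9 and 83.5 in TGFBRi. Vehicle rat 2 thus had most of the KLF15 reads of its group, and KLF15 passed limma only when that library was left out (adjusted p = 0.0219).

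The genes with the smallest p among those lower in TGFBRi included APOE, the lipid carrier protein of secreted lipoproteins. It was at 139652, 30113, 52264 and 65946 in vehicle and at 22909, 12834, 26016 and 7617 in TGFBRi. The log2 difference was -1.99 ± 0.51 (DESeq2 adjusted p = 0.0495, limma adjusted p = 0.547), and -1.25 without vehicle library 1 and TGFBRi library 4, which had the highest and the lowest value. LTC4S, the synthase of leukotriene C4, was at 970, 250, 420 and 508 against 218, 171, 165 and 48.9. Its difference was -1.85 ± 0.49 with all libraries and -1.04 without the same pair. COL9A2, a chain of the fibril-associated collagen IX, was at 582, 78.1, 126 and 107.3 against 42.1, 29, 12.1 and 42.1 (DESeq2 adjusted p = 0.0193). Vehicle rat 1 held most of the COL9A2 reads of its group, and without it the log2 difference was -1.82 in place of -2.44. In the basal libraries of the same rats APOE was at 444062 to 864464 and COL9A2 at 3588 to 10126, and basal markers were themselves lower in the treated luminal libraries (median -1.45, and -0.67 without vehicle library 1). Their part in these falls was not tested.

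PSMB10, a subunit that is exchanged into the proteasome to form the immunoproteasome, was at 1605, 2283, 2001 and 2210 in vehicle and at 985, 1094, 948 and 1116 in TGFBRi. The groups were tight and far apart, with a log2 difference of -0.96 ± 0.22 (DESeq2 adjusted p = 0.0495, limma adjusted p = 0.547). NRADD, a death domain protein related to the neurotrophin receptor, was at 707, 665, 903 and 1274 against 491, 391, 463 and 563 (DESeq2 adjusted p = 0.0445). CCDC148, a coiled-coil protein, was at 34.1, 78.9, 145 and 114 against 18.7, 15.3, 1.51 and 1.5 (DESeq2 adjusted p = 0.0495). These 3, with APOE and COL9A2, are all of the genes that fell by DESeq2. Smaller differences that passed neither test were those of SIVA1, a proapoptotic protein (-0.82 ± 0.22), FV1, a retrovirus restriction factor (-0.75 ± 0.19), and RCL1, a factor in the processing of ribosomal RNA (-0.65 ± 0.17). In each of them the 4 treated rats lay below the 4 vehicle rats.

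**Figure D2:**
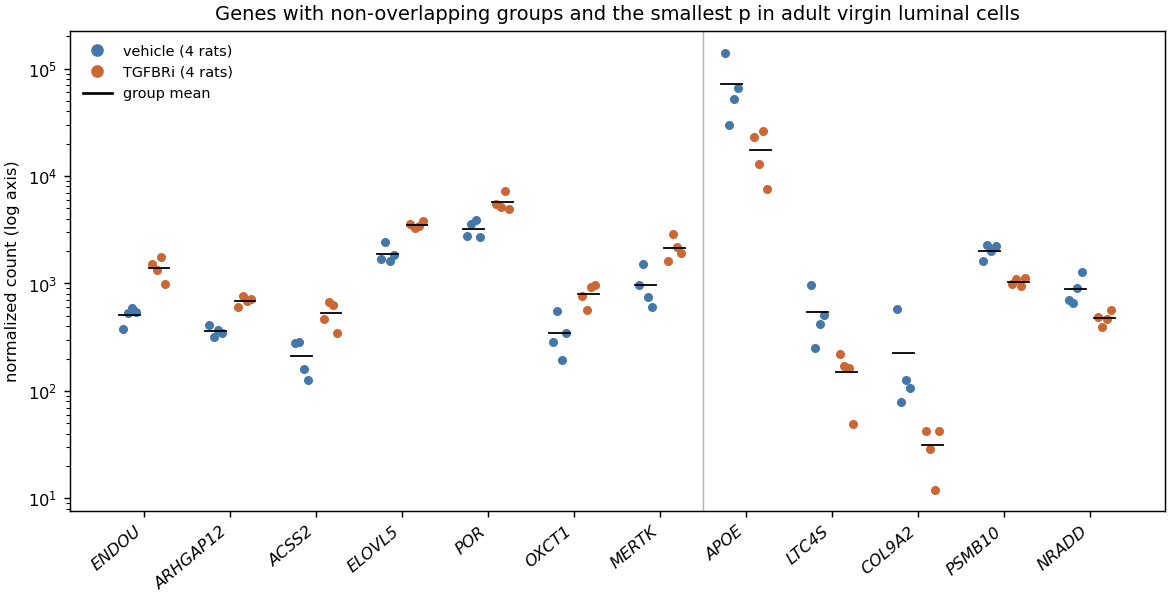
Normalized counts (log axis) of 7 genes higher (left) and 5 lower (right) in TGFBRi among those with the smallest p, in each of the 4 vehicle and 4 TGFBRi rats, with a line at the group mean. The groups do not overlap in any of these genes, which is how they were chosen, and for COL9A2 and APOE the vehicle point farthest from the rest belongs to vehicle library 1.

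The other 7 genes that rose by DESeq2 ranged from abundant CA6 to PRPH, which had few reads in any library. CA6, a carbonic anhydrase secreted into saliva and milk, was at 276, 199, 515 and 316 in vehicle and at 1988, 1966, 4565 and 79 in TGFBRi. The exception was TGFBRi library 4, and without it the log2 difference was 3.08 in place of 1.83 and CA6 passed limma (adjusted p = 0.0118). CNTN1, a neural adhesion molecule, was at 9.08, 15.9, 35.5 and 3.52 against 107.5, 103.1, 213 and 120 (DESeq2 adjusted p = 0.0418). CATSPERD, a subunit of the sperm calcium channel, was at 11.4, 13.6, 7.88 and 20.2 against 50.2, 42.7, 74 and 45.9 (DESeq2 adjusted p = 0.0272). Both were higher in 4 of 4 treated rats. SLC36A4, an amino acid transporter, was at 61.3, 107.6, 56.5 and 51 against 101.6, 237, 178 and 257, with a slight overlap (DESeq2 adjusted p = 0.0445). PRPH, the neuronal filament protein peripherin, was at 0 in all vehicle libraries and at 15.2, 12.1, 22.6 and 3.01 in TGFBRi. PDZD7, a scaffold of hair cell bundles, had a value above 0 in 1 vehicle library (2.27) and was at 14, 31.4, 9.06 and 52.7 in TGFBRi. VOM2R47, a vomeronasal receptor from a large family whose members can share reads, was at 0, 0, 1.31 and 0 against 465, 4.03, 483 and 301.

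None of the TGFβ pathway genes passed limma or DESeq2. Among 11 ligand and latent complex genes, 9 had a negative log2 difference and the median was -0.22, beside 6910 of 14243 (48.5%) over all genes. Without TGFBRi library 4 the ligand list had 6 of 11 positive and a median of 0.08, and without vehicle library 1 as well 7 of 11 and 0.29. TGFB3, the most abundant of the ligand genes themselves, was at 4060, 6614, 6988 and 9378 in vehicle and at 8718, 9099, 4546 and 1177 in TGFBRi. The spread within the treated group thus exceeded the difference (-0.51 ± 0.48), which was 0.14 without TGFBRi library 4. TGFB1 was at 327, 312, 359 and 260 against 185, 342, 284 and 415, and TGFB2 at 560, 586, 543 and 547 against 592, 698, 792 and 221. The intervals of both ran to either side of 0 (-0.75 to 0.58 and -0.77 to 0.56), and TGFB2 differed by 0.30 without TGFBRi library 4. THBS1, the matricellular protein thrombospondin 1, which can release TGFβ from its latent form, was at 202187, 129828, 106008 and 89525 against 79353, 73484, 162720 and 24769 (log2 difference -0.85 ± 0.46, and -0.35 without TGFBRi library 4). LTBP2 and LTBP4, which encode latent TGFβ binding proteins, had differences of -1.43 ± 0.91 and -0.53 ± 0.63. LTBP2 was at -0.81 without TGFBRi library 4, and LTBP4 turned to 0.39 without vehicle library 1.

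Of the 12 receptor genes, 7 had a positive difference, with a median of 0.11, beside 51.3% of all genes, and without vehicle library 1 the list had 10 positive and a median of 0.23. TGFBR1, which encodes the drug's target, was at 982, 1166, 711 and 724 in vehicle and at 1273, 813, 927 and 1007 in TGFBRi. The difference of 0.18 ± 0.26 had an interval of -0.37 to 0.72, so a change of 2-fold or more in TGFBR1 mRNA lay outside it. TGFBR2 (-0.02 ± 0.29), the coreceptor gene TGFBR3 (-0.06 ± 0.45) and SMAD2 (0.04 ± 0.22), SMAD3 (0.11 ± 0.41) and SMAD4 (0.08 ± 0.18) also differed by less than their standard errors in mRNA, and 4 of the 6 SMAD genes had a positive difference (median 0.06). Without TGFBRi library 4 the differences were 0.21 for TGFBR2, 0.48 for TGFBR3 and 0.40 for SMAD3. Over leaving out each virgin library the SMAD median ran from -0.11 to 0.14, with 1 to 4 of the 6 genes positive. The differences were larger for 2 type I receptors of related ligands. ACVR1B, the activin receptor whose kinase resembles that of TGFBR1, was at 109, 142, 94.6 and 79.2 against 214, 219, 328 and 150 (1.07 ± 0.39; limma adjusted p = 0.659). BMPR1A, a BMP receptor, was at 529, 593, 445 and 533 against 949, 680, 789 and 815 (0.62 ± 0.18; limma adjusted p = 0.596). In both genes, 2 of the 12 receptors, the 4 treated rats lay above all vehicle rats, beside 1.78% of all genes. ENG, a coreceptor found mainly on endothelium, was at 5526 in vehicle library 1 and at 442 to 1279 in the other 7.

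The 9 feedback genes had a median difference of -0.25, with 5 negative, and one of -0.12 without vehicle library 1. SMAD7, the inhibitor that a TGFβ signal induces, was at 2256, 1724, 2333 and 725 in vehicle and at 1807, 863, 1253 and 1438 in TGFBRi, a difference of -0.31 ± 0.32 (interval -0.97 to 0.36) and of -0.14 without vehicle library 1. PMEPA1, which binds SMADs and is itself induced by them, was at 10046, 4153, 7151 and 3276 against 6733, 2008, 8176 and 2070. Neither gene separated the arms. LDLRAD4, a relative of PMEPA1 with the same SMAD-binding role, was at 670, 615, 761 and 885 against 592, 388, 459 and 74.5. All treated rats lay below the vehicle rats (-1.28 ± 0.46; limma adjusted p = 0.659), and without TGFBRi library 4 the difference was -0.62.

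Among 29 measured target genes of TGFβ, 23 had a negative difference and the median was -0.26. Without vehicle library 1, which was high for fibroblast and endothelial markers, 16 of the 29 were positive and the median was 0.03. CCN2, the connective tissue growth factor gene, was at 1585, 674, 434 and 74.8 in vehicle and at 201, 151, 379 and 118 in TGFBRi. The groups overlapped, with a difference of -1.17 ± 0.66, and without vehicle library 1 it was -0.54. TIMP1, a metalloproteinase inhibitor, and JUNB, an early transcription factor, likewise overlapped (-0.76 ± 0.69 and -0.34 ± 0.31), and their differences were 0.02 and -0.06 without TGFBRi library 4. SNAI2, a transcription factor of basal cells and of epithelial-mesenchymal transition, was at 116, 19.1, 14.5 and 13.2 against 5.84, 0, 0 and 15.8. CDKN2B, the cyclin-dependent kinase inhibitor p15, which a TGFβ signal classically induces, was higher in TGFBRi, at 5.68, 13.6, 38.1 and 19.4 against 32.7, 40.3, 151 and 33.1. SNAI2 (-3.03 ± 1.07, adjusted p = 0.659) and CDKN2B (1.64 ± 0.65, adjusted p = 0.702) are the members of the target list with an unadjusted limma p under 0.05, 1 lower and 1 higher of 29, beside 3.04% lower and 3.81% higher of all genes.

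**Figure D3:**
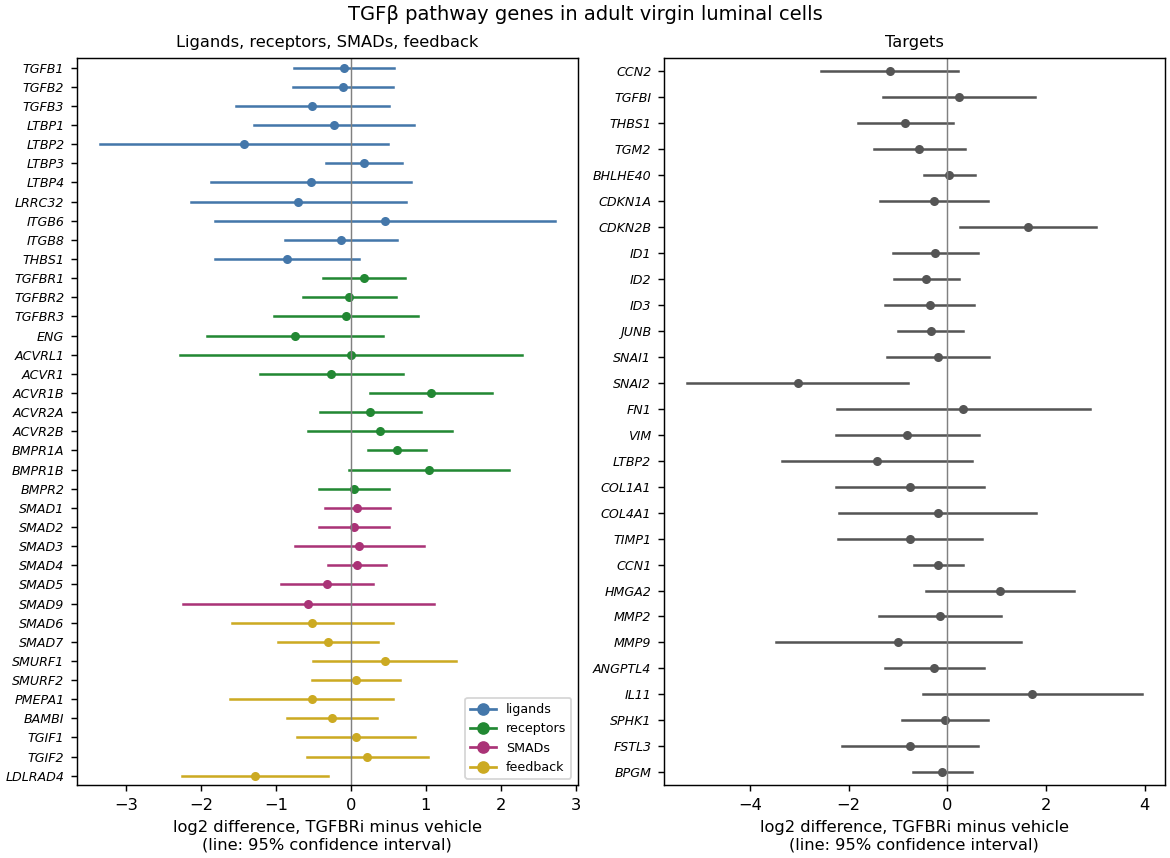
Log2 difference between TGFBRi and vehicle (4 rats each) for TGFβ ligand, receptor, SMAD and feedback genes (left) and 28 target genes (right), as points with 95% confidence intervals from limma. Most intervals cross 0; those of ACVR1B, BMPR1A and CDKN2B lie above 0 and those of LDLRAD4 and SNAI2 below, and none of these genes passed the adjusted threshold.

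Genes of luminal identity did not separate the arms. The 15 hormone-sensing genes had a median difference of 0.19, and of -0.08 without vehicle library 1 and TGFBRi library 4. ESR1, the estrogen receptor gene, was at 162, 437, 231 and 298 in vehicle and at 402, 511, 234 and 737 in TGFBRi (0.71 ± 0.39). PGR, the progesterone receptor gene, was at 661, 973, 623 and 353 against 1411, 1019, 521 and 2262 (0.89 ± 0.44). For both receptors TGFBRi rat 4 was the highest and TGFBRi rat 3 lay within the vehicle range, as did TGFBRi rat 1 for ESR1. Without TGFBRi rat 4 the differences were 0.46 for ESR1 and 0.57 for PGR. PRLR, the prolactin receptor gene (0.70 ± 0.40), and FOXA1, the factor that opens chromatin for the estrogen receptor (0.19 ± 0.37), also overlapped between groups, and were at 0.31 and -0.01 without vehicle library 1. GATA3, the transcription factor that maintains luminal fate, was at 4664, 5734, 4211 and 3769 against 4713, 8227, 5687 and 9600 (0.58 ± 0.25; limma adjusted p = 0.706). CITED1, a coregulator of the estrogen receptor, split each arm: replicate 1 was at 489 in vehicle and 454 in TGFBRi, while the other rats were at 8465 to 11642 and at 1496 to 10511.

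The 16 progenitor and alveolar genes had a median difference of -0.53, with 14 negative, and a median of 0.04 with 10 positive once TGFBRi library 4 was left out. KIT, the receptor kinase that marks luminal progenitors, was at 3938, 4643, 4225 and 5783 in vehicle and at 4580, 3830, 3038 and 581 in TGFBRi. ELF5, the transcription factor of the alveolar lineage, was at 387, 592, 661 and 738 against 679, 690, 447 and 141. TNFRSF11A, the receptor for RANKL, was at 2840, 1604, 4139 and 4459 against 3292, 2620, 1624 and 377. In all 3 the lowest value was that of TGFBRi rat 4, and at least 1 other treated rat lay within the vehicle range. SOX10 (0.28 ± 0.63, and 1.19 without that rat) and CYP24A1 (-0.43 ± 0.75, and 0.64 without it) were also lowest there, whereas ALDH1A3, a progenitor aldehyde dehydrogenase, was highest among treated rats there, at 103.1 against 20.1 to 35.

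Milk genes also depended on that library. CSN1S1, which encodes an alpha casein, was at 79990, 104357, 97530 and 103378 in vehicle and at 270587, 190074, 249674 and 30370 in TGFBRi. CSN3, the kappa casein gene, was at 623935, 470050, 670695 and 574602 against 1094830, 692855, 1536920 and 68297. LALBA, which encodes the lactose synthase regulator alpha-lactalbumin, was at 168057, 74425, 211850 and 174708 against 305505, 168979, 343673 and 10140. In CSN1S1 and CSN3, 3 treated rats lay above every vehicle rat and the remaining one lay below. Over the 11 milk protein genes the median difference was 0.03 with all libraries and 0.83 without TGFBRi library 4, where 11 of 11 were positive. None of them passed limma in either case. The 19 genes of milk fat synthesis had a median of 0.32, one of 0.58 without TGFBRi library 4, where 17 of 19 were positive, and one of 0.14 without vehicle library 1. FASN, the fatty acid synthase gene, was at 18716, 18082, 12048 and 16253 against 44365, 50646, 35134 and 10297 (0.90 ± 0.45), so the same rat again lay apart. LPIN1, a phosphatidate phosphatase of triglyceride synthesis, was chosen after its values were seen. It was at 2740, 2050, 1353 and 1048 against 7083, 2835, 6310 and 2943, above the vehicle range in each treated rat (1.39 ± 0.40, limma adjusted p = 0.596).

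Genes of cholesterol synthesis were higher in TGFBRi almost throughout the list, without any of them passing the adjusted threshold. Of 22 measured genes, 21 had a positive difference, all but PMVK, and the median was 0.63, beside 51.3% positive and a median of 0.01 over all genes. At an unadjusted limma p under 0.05, 9 of the 22 were higher, beside 3.81% of all genes, and LSS and NSDHL were the 2 whose treated values all lay above the vehicle values, beside 1.78% of all genes. The median ranged from 0.45 to 0.90 when each virgin library was left out in turn, and was 0.42 without vehicle library 1 and TGFBRi library 4. INSIG1, the sterol-sensing retention protein of this pathway, was at 5706, 10304, 4374 and 4373 in vehicle and at 6498, 12754, 16614 and 10936 in TGFBRi (0.94 ± 0.38). SREBF2, the transcription factor that drives the pathway, was at 3432, 4087, 3404 and 2595 against 3814, 4488, 5334 and 4625 (0.44 ± 0.16). FDPS, which makes farnesyl diphosphate, differed by 0.70 ± 0.35. The means were higher in TGFBRi for each of these 3 genes, and their single values overlapped between groups. SREBF1, the relative of SREBF2 that drives fatty acid synthesis, was at 3952, 11058, 6220 and 4929 against 7992, 16467, 8983 and 18211 (1.00 ± 0.39), and was named after its values were seen.

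No gene of the cell cycle and cell death lists passed limma. The 37 S phase genes had a median difference of -0.14, the 48 G2/M genes one of 0.20, the 16 CDK inhibitor and G1 genes one of 0.06 and the 27 apoptosis genes one of 0.05. Over leaving out each virgin library the S phase median ran from -0.34 to 0.05 and the G2/M median from -0.14 to 0.45, the lower value of each being that without TGFBRi library 4. CCND1, which encodes cyclin D1, was at 4209, 7158, 3889 and 3759 in vehicle and at 4389, 3213, 2579 and 6366 in TGFBRi. PCNA, the sliding clamp of DNA replication, was at 2919, 2166, 2019 and 2950 against 2306, 1509, 2383 and 1541. MYC, a driver of growth, was at 20310, 12328, 14505 and 13255 against 17131, 9845, 19833 and 3759. The groups overlapped in all 3 genes. CDKN1A, the p21 inhibitor and a TGFβ target, differed by -0.26 ± 0.52. CDKN1B, the p27 inhibitor, named after its values were seen, was at 211, 212, 122 and 193 against 313, 341, 252 and 366, higher in 4 of 4 treated rats (0.80 ± 0.26, limma adjusted p = 0.659). BCL2L1 (0.61 ± 0.31) and MCL1 (0.25 ± 0.16), which encode survival proteins of the BCL2 family, had overlapping groups.

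Ribosomal protein genes lay on the lower side as a list. Of 76 measured genes, 74 had a negative difference with a median of -0.50, and 38 were lower at an unadjusted limma p under 0.05, beside 3.04% of all genes. None passed the adjusted threshold, and RPL29, RPL6 and RPS23 were the 3 whose treated values all lay below the vehicle values, beside 1.35% of all genes. RPL13, of the large subunit, was at 43864, 32250, 46809 and 43902 in vehicle and at 31863, 22218, 37973 and 21492 in TGFBRi (-0.58 ± 0.23). RPS2, of the small subunit, was at 28394, 19621, 32384 and 29471 against 20741, 14195, 22467 and 14475 (-0.62 ± 0.24). In both the lowest vehicle value was that of replicate 2, and it lay within the treated range. The list's median ranged from -0.67 to -0.38 when each virgin library was left out. Ribosomal protein genes have many processed copies in the genome, so part of their reads may be lost or shared in counting. The share of reads that fell on no gene was 29.3% to 33.5% in TGFBRi and 25.6% to 30.6% in vehicle libraries, and its part in this result was not tested.

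Among other lists of energy and stress genes, 70 of 77 respiratory chain genes had a negative difference, with a median of -0.25 (-0.32 to -0.14 over leaving out each virgin library). Of these 77, 1 was lower at an unadjusted limma p under 0.05, beside 3.04% of all genes. A negative difference was also found in 14 of 15 integrated stress response genes, with a median of -0.48. The stress response median was -0.24 without vehicle library 1, with 12 of 15 negative. SESN2, a stress-induced regulator of nutrient signalling, was at 12408, 6844, 7283 and 2861 in vehicle and at 6089, 1448, 6404 and 2040 in TGFBRi (-0.99 ± 0.46). JUND, the most abundant of the immediate early genes measured, was at 460404, 390585, 449808 and 446770 against 389192, 350457, 365311 and 218419. In JUND all treated rats lay below the vehicle rats, and its difference of -0.43 ± 0.23, or -0.24 without TGFBRi library 4, did not pass (limma adjusted p = 0.75). The 12 EGF family genes had a median of 0.50, and of 0.88 without vehicle library 1 and TGFBRi library 4. ERBB3, a receptor partner of that family, was at 2801, 3607, 2173 and 2640 against 4484, 3761, 5456 and 3431 (0.61 ± 0.28). TGFA, an EGF receptor ligand, was at 1068, 641, 918 and 465 against 1217, 858, 1632 and 920 (0.60 ± 0.31). Apart from cell type marker lists, the other 13 lists drawn in the plot of list medians had medians between -0.47 (IGF axis) and 0.20 (circadian clock). They had 0 genes called by limma. Among them, without vehicle library 1, the IGF axis median was 0.01, the Notch median 0.23 and the chemokine and cytokine median 0.26, and without TGFBRi library 4 the complement median was 0.33.

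Lists that belong mainly to stromal, immune and basal cells moved with vehicle library 1. The 38 collagen and matrix genes had a median of -0.43 with 27 negative, and one of 0.19 without that library. The 8 MHC class II genes had a median of -0.75, and 0.43 without it. CD74, the class II invariant chain, was at 21646 in that library against 876 to 2802 in the other 7. The 11 leukocyte markers turned from -0.63 to 0.50. TAGLN, a contractile protein gene of basal cells, was at 15960 in vehicle library 1, 893 to 1150 in the other vehicle libraries and 536 to 889 in TGFBRi. The fibroblast gene DCN, which encodes decorin, was at 24148, 2017, 1627 and 751 against 2070, 3503, 5913 and 2910, so that without vehicle library 1 the treated values were the higher ones. The basal keratin gene KRT14 was at 11110, 1972, 1314 and 1187 against 418, 583, 910 and 930 (-1.84 ± 0.64, and -1.11 without vehicle library 1), and the 13 basal markers had a median of -1.45, and -0.67 without it. Luminal keratins were at like levels in both arms, with a difference of -0.08 ± 0.26 for KRT8 and -0.06 ± 0.23 for KRT18. In bulk libraries of this kind, fewer cells of a type and less RNA per cell cannot be told apart.

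**Figure D4:**
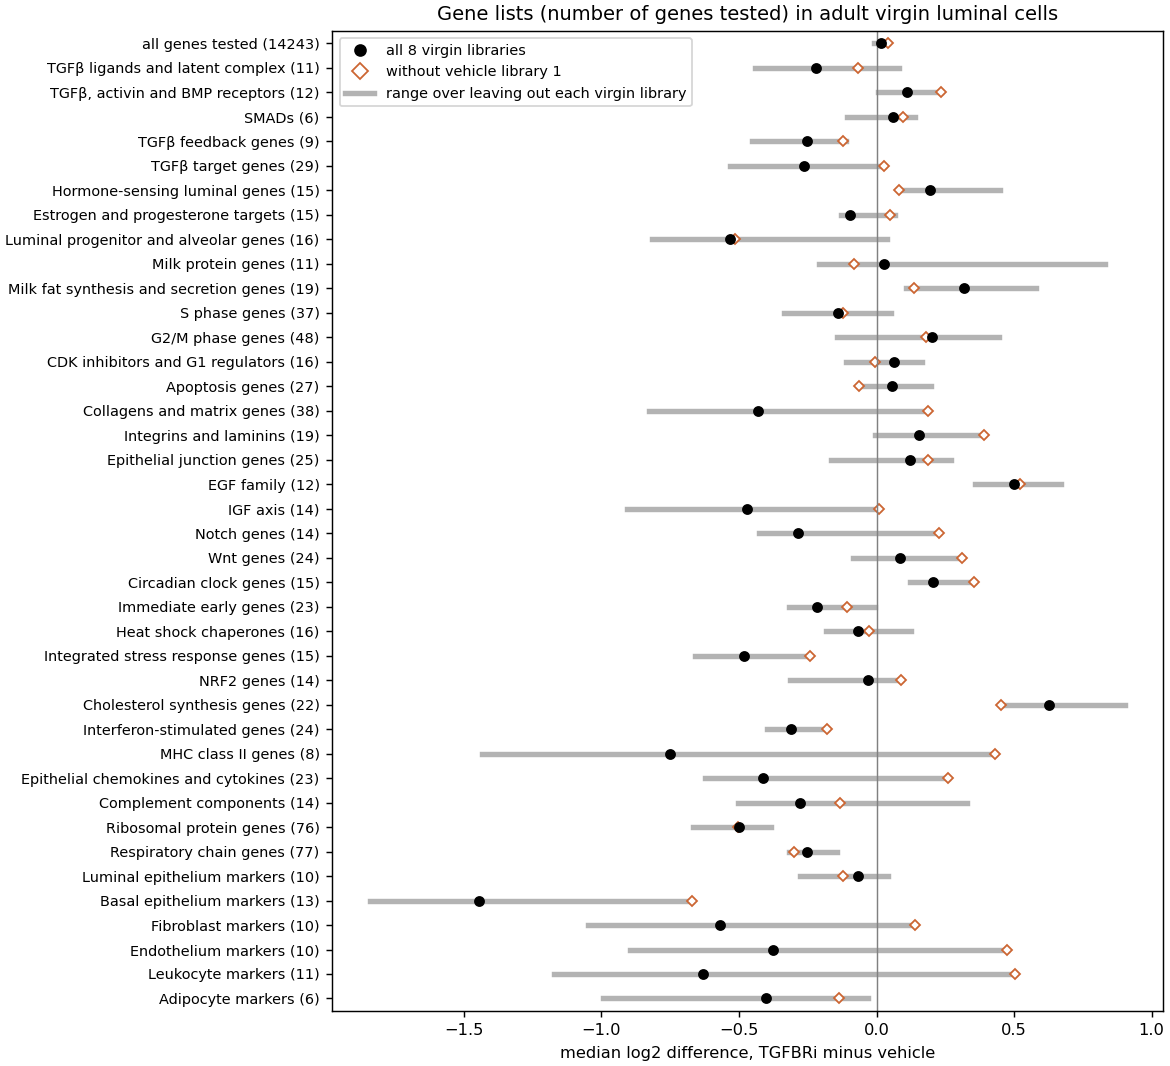
Median log2 difference between TGFBRi and vehicle for each gene list, with all 8 virgin libraries (points), without vehicle library 1 (diamonds) and over leaving out each library in turn (grey bars). Cholesterol synthesis genes stay above 0 and ribosomal protein genes below 0 over the whole bar, while matrix, MHC class II and leukocyte lists move from below 0 to above 0 without vehicle library 1. Several other lists also keep their sign over the whole bar, among them the EGF family, milk fat, respiratory chain, integrated stress response and basal marker lists.

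The animal codes in the labels, whose meaning is not given in the sources used here, also moved with expression. In each arm replicates 1 and 3 carried codes ending in N, and replicates 2 and 4 codes ending in R. DNAJA1, a heat shock cochaperone, was at 13130 and 17479 in the N vehicle rats and 11440 and 15008 in the N treated rats, against 40457 and 31477 in the R vehicle rats and 39877 and 27186 in the R treated rats. With letter and digit as terms of the limma fit, chosen after seeing the data, 2429 genes (17.1%) had an unadjusted p under 0.05 for the letter and 1165 (8.18%) for TGFBRi, with 0 called for either. The letter is balanced over the arms, and the TGFBRi difference can be read within each: the cholesterol list had a median of 0.68 in N rats and 0.64 in R rats, and the ribosomal protein list -0.28 and -0.72. The milk protein list did not keep its sign, with 0.92 in N and -0.45 in R rats, the latter holding TGFBRi library 4. The other treated R rat had a milk protein sum of 2463510, above the 1759610 and 1999930 of the R vehicle rats.

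Whether the response differed in rats that had been pregnant was tested with the parous arm. Its 4 treated and 4 vehicle rats were other animals of the same strain, age range and dosing, with their own controls. Parous vehicle libraries 3 and 4 stood apart, with 11641 and 11466 genes with a read. The other parous luminal libraries had 13109 to 13878. The part of parous vehicle libraries 3 and 4 in the values below was not tested. For the difference between the virgin and the parous response, limma called 0 of 14243 genes (0%), with 606 at an unadjusted p under 0.05 and a lowest adjusted p of 0.693. edgeR called 0, with 716 at an unadjusted p under 0.05, and DESeq2 called 3: ZBTB16, MOB1A and SNX6. ZBTB16, a zinc finger factor induced by steroids, was at 412, 927, 436 and 657 in virgin vehicle and at 402, 571, 240 and 494 in virgin TGFBRi rats. In parous rats it was at 142, 244, 54.6 and 133 in vehicle and at 704, 497, 853 and 1120 in TGFBRi. The treated parous rats thus lay above their controls, while the virgin groups overlapped (log2 difference -0.50 ± 0.41 in virgin and 2.58 ± 0.41 in parous rats). MRC2, a collagen receptor, differed by -1.29 ± 0.46 in virgin and 1.63 ± 0.46 in parous rats. CHIT1, a chitinase, was at 1.31 to 35.2 in virgin vehicle and at 0 to 0.805 in virgin TGFBRi rats, and in parous rats at 0 to 0.941 in vehicle and at 0.813 to 3.54 in TGFBRi. All but the higher virgin vehicle values of CHIT1 are near 0 and rest on few reads. SNX6, a sorting nexin, had differences of 0.41 in virgin and -0.49 in parous rats, and was named after its calls were seen.

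The 20 more abundant genes chosen by the smallest p and non-overlapping groups in virgin rats had the same sign in parous rats, 10 of the 10 higher and 10 of the 10 lower ones, beside 60.8% and 62.7% of all genes with a mean of at least 50 reads. In parous rats ENDOU differed by 1.04, ACSS2 by 1.24, ARHGAP12 by 0.62 and POR by 0.72, against 0.29 for ELOVL5 and 0.56 for OXCT1. Of the lower genes, RCL1 by -0.65 and APOE by -0.75. At an unadjusted p under 0.05 in the parous comparison there were 6 of the 10 higher genes, where 12.9% of all such genes were. Of the 10 lower ones there were 2, FV1 and RCL1, where 7.24% were. The virgin and parous differences share each gene's standard error in the same limma fit. Choosing genes by small p in virgin rats therefore also favours a small p in parous rats. Among the other 7 genes that rose by DESeq2, CA6 (1.54), CNTN1 (2.85), CATSPERD (1.09) and SLC36A4 (0.93) were also positive in parous rats. VOM2R47, PDZD7 and PRPH had negative differences there (-1.56, -1.64 and -0.60). VOM2R47 was at 0, 7.23, 221 and 153 in parous vehicle and at 499, 1.46, 0.621 and 0.886 in parous TGFBRi rats. PDZD7, at 9.06 to 52.7 in virgin TGFBRi rats, was at 16.4 to 50.8 in parous vehicle rats. LPIN1 also differed by 1.49 ± 0.40 in parous rats. The lists went apart: cholesterol synthesis genes had a median of 0.06 in parous rats and ribosomal protein genes one of 0.27, beside 0.13 over all genes. None of these list differences between virgin and parous rats was tested. The part of parous vehicle libraries 3 and 4 in the parous medians was not tested either.

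Basal cells of the same 8 virgin rats gave the other comparison, run on the within-rat difference between luminal and basal values. limma called 100 of 12528 genes (0.798%), 66 with a higher and 34 with a lower TGFBRi difference in luminal than in basal cells. In 98 of these the basal difference was the larger in size, and 91 had opposite signs. The median size was 0.43 on the log2 scale in luminal and 1.73 in basal cells. Calling genes for a difference between fractions favours opposite signs and a large response in either fraction. The same counts over all genes tested were not taken. GADD45G, a growth arrest gene, was at 17810, 11630, 17471 and 8058 in luminal vehicle and at 11196, 7936, 8653 and 4785 in luminal TGFBRi libraries. In basal cells of those rats it was at 29160, 21481, 25156 and 12892 against 75266, 37671, 70930 and 34360. It was thus lower on average in treated luminal cells and higher in every treated basal library, a difference between the fractions of -2.02 ± 0.24 (limma adjusted p = 0.0358). MOB1A, a cofactor of Hippo kinases, differed by -0.08 in luminal and 2.88 in basal cells, NUDT3, a diphosphoinositol phosphatase, by -0.42 and 1.59, ADRM1, a ubiquitin receptor of the proteasome, by -0.16 and 1.55, and POLDIP3 by -0.23 and 2.40. On the other side were RABGAP1 (0.62 and -1.51), the deadenylase scaffold CNOT1 (0.77 and -1.49) and MBTPS1, the protease that frees SREBP factors (0.38 and -1.26). FRZB and SSC5D were at 0 in all 4 treated basal libraries and at 26.3 to 61.9 and 9.03 to 21 in the treated luminal ones.

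Among the pathway lists, 1 of 12 receptor genes and 2 of 29 target genes were called in this comparison, beside 0.798% of all genes. The ligand, SMAD and feedback lists had 0. The receptor was TGFBR1, with 0.18 in luminal and -2.39 in basal cells. CDKN1A, 1 of the 2 targets, had -0.26 and 2.27. Both were named after their calls were seen. TGFBR1 was at 995, 519, 666 and 382 in the basal vehicle and at 79.6, 107.04, 153 and 129 in the basal TGFBRi libraries. The difference between fractions was therefore carried by the basal values. The basal TGFBRi libraries had fewer genes with a read (10151 to 11434) than the basal vehicle libraries (12123 to 12561), and their median log2 difference over the genes tested was -0.24, beside -0.01 in luminal cells. The part of that shift in the 100 calls was not tested. Leaving out 1 rat gave 0 to 46 calls, with 0 without TGFBRi rat 1 or any of the 4 vehicle rats, 20 without TGFBRi rat 2, 4 without TGFBRi rat 3 and 46 without TGFBRi rat 4.

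**Figure D5:**
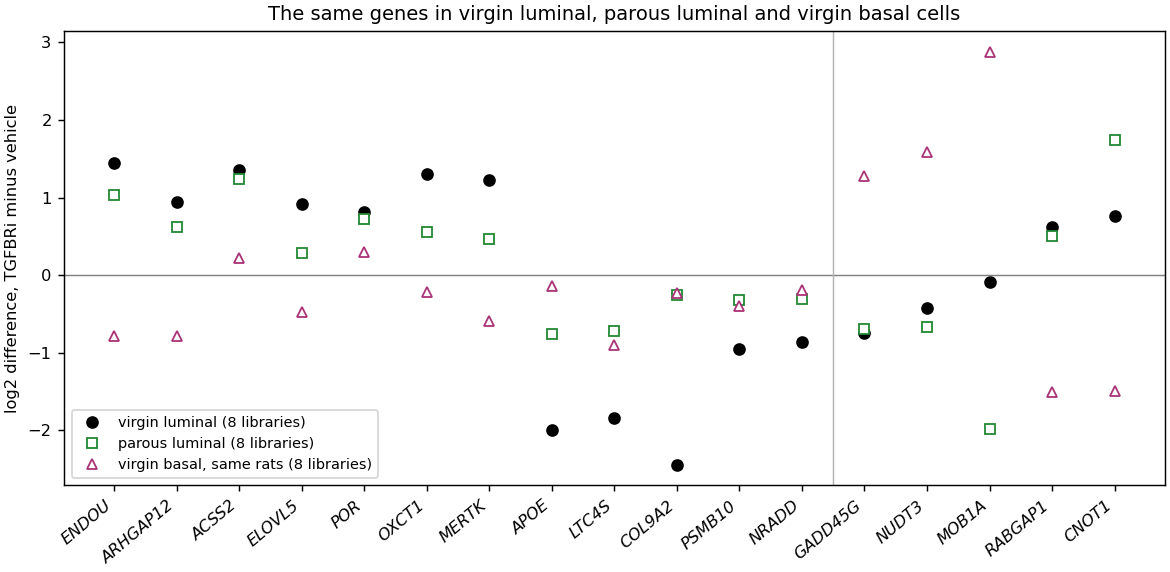
Log2 difference between TGFBRi and vehicle in virgin luminal, parous luminal and virgin basal libraries (8 libraries each) for 12 genes of small p in virgin luminal cells (left of the line) and 5 genes called in the luminal and basal comparison (right). Left of the line the virgin and parous luminal points share their sign. Right of it the basal points lie on the opposite side of 0 from the virgin luminal ones, which calling genes for a difference favours.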

How the data were processed

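Luminal cells were sorted from 8 adult virgin ACI rats, 1 library each, prepared with a low-input SMARTer kit. Per the study's methods, the authors aligned reads with STAR 2.5.1b to rn6 and counted them per refGene gene with HTSeq, without strand, so a gene and its antisense partner cannot be told apart. The deposited values are counts divided by DESeq2 (1.30.1) size factors, a normalized signal and not raw counts. All 299116 values above 0 (100%, tolerance 0.001 reads) were whole reads once rescaled, and these recovered reads entered edgeR and DESeq2. The table lines that name no gene, 25.6% to 33.5% of reads, were kept out of totals and tests.

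limma 3.58.1 (R 4.3.3; trend and robust variances) was fitted to log2(value + 1) in 16 adult luminal libraries, virgin and parous, for genes whose values summed to at least 10. Fold changes of low genes are understated on this scale. Calls used a Benjamini-Hochberg adjusted p of 0.05. The luminal and basal comparison used the within-rat difference. edgeR 4.0.16 and DESeq2 1.42.0, other pseudocounts, filters, scaling, the replicate block and leaving out each library were alternatives. In the 16-library fit the p-values and standard errors measure the spread between rats within groups, pooled over virgin and parous rats. In the luminal and basal comparison they measure the spread of the within-rat differences. Depth was 19715315 to 28815782 reads on genes per library. Scripts were tested on simulated data.

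Named genes were those called with a mean of at least 50 reads, or, there being none, the 10 per direction with the smallest p and non-overlapping groups, then genes called by DESeq2, all members of the TGFβ and luminal identity lists, up to 4 abundant members of other lists, and, for the 2 difference tests, up to 5 called genes per direction or the 3 with the smallest p. Only the more abundant of these are described, and some genes are not reported here. The members and lists were chosen with earlier results of these data known. No coordinates are given, because no rn6 genome was used here.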

Additional observations from a re-analysis of the deposited data

Results flagged for a closer look

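In groups of 4 rats, a highest or lowest value was set apart when its gap to the nearest other value, as a share of the group's range, passed Dixon's 95% critical value. This was looked for in 258 groups and found in 19. Single genes were taken on the log2 scale, and list sums, read totals and read shares untransformed. The untransformed scale favours a flag for a high value, and the sums were not tested on the log2 scale. Chance alone gives about 1 in 20 for normally distributed values. Among vehicle rats, replicate 1 was the one apart for the summed MHC class II genes (share 0.935), basal markers (0.939), fibroblast markers (0.858), endothelial markers (0.947), leukocyte markers (0.971) and adipocyte markers (0.890). The same rat was apart for ENG (0.914), SNAI2 (0.834), TAGLN (0.912), TIE1 (0.983) and SSC5D (0.942), where it was high, and for CITED1 (0.899), where it was low. It was also the only vehicle rat with PDZD7 reads (1.0), while vehicle rat 3 was the only one with VOM2R47 reads (1.0). Among treated rats, replicate 4 was low for CSN1S1 (0.839) and MCL1 (0.918) and high for CNOT1 (0.837), replicate 3 was high for CDKN2B (0.866), and replicate 2 was low for VOM2R47 (0.897).

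By limma on the within-rat difference, 100 genes were called for a TGFBRi response that differed between luminal and basal cells of the same rats. Leaving out 1 rat gave 0 to 46 calls. Given here are the 10 genes named for this test above. The difference of the log2 responses, luminal minus basal, was -2.02 for GADD45G, -2.01 for NUDT3, -1.72 for ADRM1, -2.63 for POLDIP3 and -2.96 for MOB1A. It was 2.13 for RABGAP1, 8.34 for FRZB, 2.26 for CNOT1, 7.72 for SSC5D and 1.63 for MBTPS1. The FRZB and SSC5D values rest on treated basal libraries without reads of those genes.

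The share of reads that fell on no gene was above the highest vehicle value of 30.6% in TGFBRi rat 2 (31.9%), TGFBRi rat 3 (33.5%) and TGFBRi rat 4 (31.01%).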

How the results depend on the processing

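The count of genes called for TGFBRi in virgin luminal cells was 0 with limma and stayed 0 with edgeR, the virgin libraries alone, pseudocounts of 0.5 and 5, both other filters, TMM scaling, variances without the robust option and the animal code letter and digit as terms. It was 15 with DESeq2 on 16 libraries and, chosen after seeing the data, 17 with DESeq2 on the virgin libraries and 1 (CA6) without vehicle library 1 and TGFBRi library 4. Leaving out each virgin library gave 0 to 2 (CA6 and ENDOU without TGFBRi replicate 4, KLF15 without vehicle replicate 2). For the virgin minus parous difference the count of 0 became 3 with DESeq2 and 0 to 1 when each library was left out (MOB1A without parous vehicle replicate 2). For luminal minus basal the 100 calls stayed within 1.5 times with a pseudocount of 5, a mean of at least 10 and TMM scaling (116 with the last), and were 0 to 46 when each rat was left out. Of 112 genes named with values, all 50 with an unadjusted limma p under 0.05 kept their sign in 18 alternatives. Of the other 62, 31 changed sign in at least 1 of them. The 50 were picked by their p in the same data, which favours a kept sign. Some alternatives could not change a sign: the virgin libraries alone, the replicate block and the code terms leave the limma log2 difference as it was. Where the groups do not overlap, leaving out a library cannot change the sign either.

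With the replicate block (the animal code shared by the arms) limma called 0 genes in virgin cells, 0 for virgin minus parous and 0 in place of 100 for luminal minus basal. The codes do not mark the same animal. Deviations of same-coded virgin rats correlated at 0.117, 0.141, 0.0287 and 0.0487, and none correlated best with its own code, so the codes were not taken as pairs.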
